A study of Mus musculus with 18 samples.

Results

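Collagens are the main structural proteins of the extracellular matrix. The collagen genes described here are the 37 symbols of the form Col, number, a, number that reached 30 or more counts summed over 18 mouse heart libraries, out of 44 symbols of that form and 25230 symbols in all. They were split by protein type into 8 fibrillar collagens, 8 basement membrane collagens and 21 other collagens. The 7 symbols left out were Col24a1 and Col2a1 with 22 counts each, Col11a1 with 18, Col19a1 with 12, Col10a1 with 10, and Col6a4 and Col9a1 with 2 each. Just inside the limit were Col26a1 with 35 counts and Col17a1 with 62.

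Each collagen molecule is a triple helix of 3 alpha chains. The chains are hydroxylated and folded in the endoplasmic reticulum with the help of chaperones, and fibrillar procollagens are then trimmed outside the cell and cross-linked by lysyl oxidases. In the heart, fibroblasts make most of the fibrillar collagen, while type IV collagen lies in the basement membranes around cardiomyocytes and vessels. After an infarct, collagen synthesis in the ventricle is known to contribute to the scar.

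The series holds RNA sequencing of 3 heart regions from male C57BL/6J mice, taken 3 days after the left anterior descending artery was tied off. The infarcted left ventricle (LV), the atria and the non-infarcted LV were each taken from mice given liraglutide and from mice given PBS, which makes 6 groups of 3 libraries. Liraglutide is an agonist of the receptor for glucagon-like peptide 1, and PBS is the buffer control. All groups had coronary ligation, and hearts of sham-operated mice are not analysed here. The sources used here give neither the dose of liraglutide nor the number of animals. The labels call the libraries biological replicates without saying how animals were shared between regions, so a p-value measures the spread between these libraries. Library totals ran from 4280459 to 21853482 counts. Levels are given as counts scaled to the library total (CPM), and a gene was called when its Benjamini-Hochberg adjusted p from edgeR's quasi-likelihood test, adjusted over all genes tested, was under 0.05.

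Markers that tell atria from LV fitted the labels, with 2 libraries apart. They were not used to check the split into infarcted and non-infarcted LV. Summed atrial cardiomyocyte markers lay between 37123 and 52338 CPM in atria, against 137 to 521 CPM in the LV libraries. The liraglutide atrial replicate 3 had 1577 CPM of ventricular markers. The liraglutide atrial replicate 1 had 587 CPM and replicate 2 had 76.5 CPM, against 59.9 to 123 CPM in the PBS atrial libraries. The PBS atrial replicate 2 had 310 CPM of adipocyte markers, against 0.798 to 14.2 CPM in the others.

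Promoter sequences of 3 collagens that rose together in infarcted LV are shown. Among members that passed the filter on low counts, Col3a1 had the largest log2 fold change in infarcted against non-infarcted LV with PBS, and Col8a1 and Col5a3 had the largest falls in atria against infarcted LV. Col3a1 encodes the chain of type III collagen (250 bases before the annotated start, chr1:45311288-45311537, plus strand). Col5a3 encodes a chain of type V collagen (chr9:20815068-20815317, minus strand), and Col8a1 a chain of the short-chain type VIII collagen of vessel walls (chr16:57754738-57754987, minus strand). Sequences are from RefSeq on GRCm38.p6, written along the gene's strand, and capitals mark 3 short motifs on either strand, the TATAAA box, the CCAAT box and the GC box GGGCGG.
Col3a1: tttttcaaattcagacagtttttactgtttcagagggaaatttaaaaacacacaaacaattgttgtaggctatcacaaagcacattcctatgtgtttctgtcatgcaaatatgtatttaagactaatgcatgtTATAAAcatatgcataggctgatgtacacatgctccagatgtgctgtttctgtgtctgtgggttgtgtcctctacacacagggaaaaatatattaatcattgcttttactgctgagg
Col5a3: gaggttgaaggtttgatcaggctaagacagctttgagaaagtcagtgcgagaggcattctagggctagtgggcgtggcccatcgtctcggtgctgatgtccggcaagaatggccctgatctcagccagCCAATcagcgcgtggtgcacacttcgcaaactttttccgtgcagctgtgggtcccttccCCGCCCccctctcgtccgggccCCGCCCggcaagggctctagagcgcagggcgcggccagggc
Col8a1: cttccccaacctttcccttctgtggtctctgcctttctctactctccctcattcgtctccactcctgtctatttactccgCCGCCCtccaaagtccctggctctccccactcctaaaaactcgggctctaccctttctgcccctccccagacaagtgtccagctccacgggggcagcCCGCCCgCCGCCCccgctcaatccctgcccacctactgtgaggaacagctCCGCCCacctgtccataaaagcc
Col3a1 held TATAAA and neither of the other motifs, Col5a3 held CCAAT and GGGCGG, and Col8a1 held GGGCGG alone. A promoter window was found for 29 of the 37 members, 31 windows in all. GGGCGG was in 20 of them (64.5%), against 32.7% of all 32851 windows. CCAAT was in 10 (32.3%, against 33.8%) and TATAAA in 4 (12.9%, against 12.4%). A match of letters is not shown to be a working site.

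Per length, 2 basement membrane chains led in every region. CPM per kilobase of the longest coding transcript was, as a median over the 18 libraries, 162 for Col4a1 (109 to 306) and 114 for Col4a2 (86.0 to 192). Col4a1 and Col4a2 encode the 2 chains of the common type IV network. Next came the fibrillar chains Col3a1 with 29.8 and Col1a2 with 25.0, the type VI chains Col6a1 with 20.7 and Col6a2 with 18.9, Col15a1 with 18.5 and Col1a1 with 18.2. The remaining 29 members had medians of 8.97 or less. From Col3a1 to Col1a1 the ranges of neighbours in this order overlapped, whereas Col3a1 (12.8 to 83.6) lay below Col4a2 in range. Col1a1 and Col1a2 form type I collagen, Col6a1 and Col6a2 are chains of beaded filaments, and Col15a1 encodes a multiplexin of basement membrane zones.

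**Figure D1:**
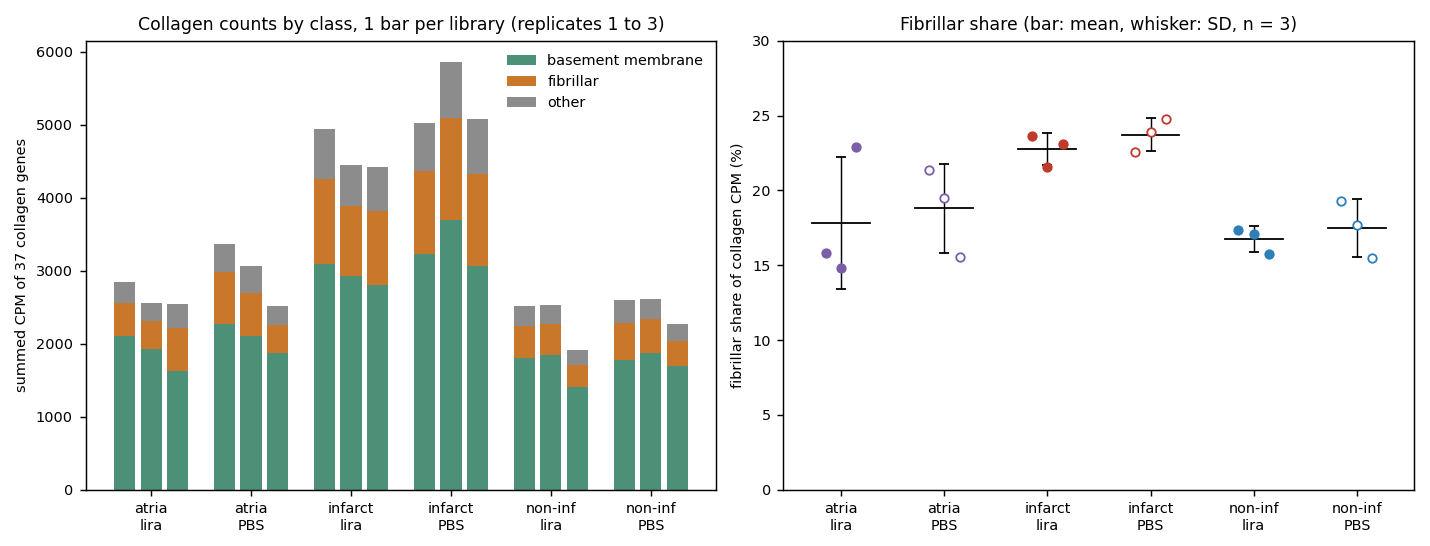
Left, summed CPM of the 37 collagens in each library, stacked by class, with 3 bars per group. Right, the fibrillar share of collagen CPM in percent, with points for libraries, a line for the mean and whiskers for the SD (n = 3). Infarcted LV libraries reach 4424 to 5860 CPM, above all others.

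Collagens were higher in infarcted than in non-infarcted LV in both treatments, and none was called lower with all libraries kept and no replicate block. Of 37 members, 30 passed the filter on low counts in the PBS comparison, and 22 of these rose. Over all 12831 genes tested, 25.7% were called higher and 21.7% lower. With liraglutide, 22 of 30 rose and the other 8 were not called, where 27.3% of 13022 genes were called higher and 22.4% lower. The same 22 genes were called in both treatments. With the replicate number as a block, Col13a1, a transmembrane collagen, was also called higher with PBS (adjusted p = 0.015), and Col4a5, a type IV chain, was called lower with liraglutide (adjusted p = 0.0426). The median log2 fold change of the tested collagens was 1.10 in PBS hearts and 1.01 in liraglutide hearts, against -0.02 for all genes tested in each. By class, 7 of 8 fibrillar, 7 of 8 basement membrane and 8 of 14 tested other collagens rose in each treatment.

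Among fibrillar collagens, Col3a1 had 368, 465 and 399 CPM in infarcted LV with PBS, against 158, 136 and 92.5 CPM in non-infarcted LV with PBS. Its log2 fold change was 1.62 (SE 0.173, adjusted p = 0.000246). The groups did not overlap, and 31.4% of all genes tested lay wholly higher in this comparison.
Col1a1 had 219, 267 and 232 CPM in infarcted LV, against 83.0, 89.5 and 66.7 CPM in non-infarcted LV, a log2 fold change of 1.53 (SE 0.0931, adjusted p = 1.47e-08). Its partner chain Col1a2 had 241, 317 and 292 CPM, against 113, 114 and 89.2 CPM, a log2 fold change of 1.37 (SE 0.0982, adjusted p = 6.52e-08). For both chains every infarcted library lay above every non-infarcted one. Type V collagen nucleates and regulates the diameter of type I fibrils. Its chain Col5a1 had 101, 138 and 118 CPM in infarcted LV, against 50.2, 46.5 and 38.8 CPM in non-infarcted LV (log2 fold change 1.34, SE 0.106, adjusted p = 3.3e-07). Col5a2 had 81.4, 103 and 109 CPM, against 42.6, 37.3 and 32.2 CPM (log2 fold change 1.31, SE 0.109, adjusted p = 5.34e-07). These groups did not overlap either, and Col5a3 had a log2 fold change of 1.61 (SE 0.241, adjusted p = 0.00327). Col27a1, a fibrillar collagen known from cartilage, rose by 0.65 on the log2 scale (SE 0.158, adjusted p = 0.00353). Col11a2, a chain of the cartilage type XI collagen, was not called, at 4.90 ± 0.307 CPM in infarcted and 4.92 ± 0.735 CPM in non-infarcted LV (SD, n = 3 each, log2 fold change -0.06, SE 0.192).

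The same chains rose in liraglutide hearts. Col3a1 had 377, 306 and 321 CPM in infarcted LV, against 129, 125 and 71.4 CPM in non-infarcted LV (log2 fold change 1.60, SE 0.22, adjusted p = 0.00112). Col1a1 had 212, 180 and 169 CPM, against 74.5, 77.5 and 53.3 CPM (log2 fold change 1.43, SE 0.13, adjusted p = 4.3e-06). Col1a2 had 242, 210 and 239 CPM, against 101, 106 and 83.2 CPM (log2 fold change 1.23, SE 0.091, adjusted p = 6.04e-08). Over both treatments, 22 of the 37 members had all 6 infarcted above all 6 non-infarcted LV libraries, and none had them all below. Of all 15642 genes with 30 or more counts, 20% had them all above.

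Of the basement membrane collagens, the 2 abundant type IV chains rose. Col4a1 had 1768, 2025 and 1656 CPM in infarcted LV with PBS, against 910, 943 and 877 CPM in non-infarcted LV with PBS, a log2 fold change of 0.94 (SE 0.0805, adjusted p = 2.69e-07). Col4a2 had 1074, 1241 and 996 CPM, against 669, 730 and 662 CPM, a log2 fold change of 0.63 (SE 0.084, adjusted p = 2.33e-05). Neither gene's groups overlapped. With liraglutide, Col4a1 had 1679, 1633 and 1534 CPM in infarcted LV, against 933, 956 and 719 CPM in non-infarcted LV (log2 fold change 0.87, SE 0.106, adjusted p = 7.62e-06). Col4a2 had 1015, 985 and 928 CPM, against 690, 712 and 563 CPM (log2 fold change 0.56, SE 0.0972, adjusted p = 0.000245). The multiplexin Col15a1 had the largest change of the class. It had 274, 293 and 286 CPM in infarcted LV with PBS, against 113, 95.5 and 77.9 CPM in non-infarcted LV with PBS, a log2 fold change of 1.52 (SE 0.0985, adjusted p = 3.24e-08). Col18a1, whose protein carries the endostatin fragment, had 35.2, 43.0 and 30.6 CPM in infarcted LV, against 18.5, 24.5 and 12.3 CPM in non-infarcted LV (log2 fold change 0.94, SE 0.202, adjusted p = 0.00563). Col4a3, Col4a4 and Col4a6, chains of the specialised type IV networks, rose by 0.99, 1.18 and 1.13 on the log2 scale in PBS hearts, and without infarcted LV PBS replicate 2 the call of Col4a6 was lost (adjusted p = 0.124). Col4a5 was not called, at 55.9, 60.4 and 61.9 CPM in infarcted LV, against 56.4, 64.9 and 48.0 CPM in non-infarcted LV with PBS (log2 fold change 0.02, SE 0.0899). With liraglutide it was 48.2, 47.2 and 42.9 CPM, against 53.4, 56.9 and 46.9 CPM (log2 fold change -0.20, SE 0.0938, adjusted p = 0.0842). It was also called lower without the liraglutide replicate 3 of non-infarcted LV (adjusted p = 0.0381). Col4a1 and Col4a2 lie head to head on chromosome 8 with annotated starts that overlap by 22 bases (chr8:11312805-11312826, GRCm38), and the sources used here do not say whether counting used strand, so a few of their reads could be shared.

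Of the other collagens, the type VI chains Col6a1, Col6a2, Col6a3 and Col6a6 rose by 1.35, 1.47, 1.39 and 1.08 on the log2 scale in PBS hearts and by 1.39, 1.38, 1.52 and 1.28 in liraglutide hearts. Col6a1 had 199, 234 and 214 CPM in infarcted LV with PBS, against 92.5, 81.4 and 70.1 CPM in non-infarcted LV with PBS (SE 0.0905, adjusted p = 3.27e-08). Col8a1 had 49.8, 70.5 and 70.1 CPM, against 23.1, 30.2 and 22.1 CPM (log2 fold change 1.28, SE 0.138, adjusted p = 1.84e-05). The 2 groups did not overlap for either gene. Col14a1, a fibril-associated collagen, had 23.1, 30.9 and 25.5 CPM in infarcted LV, against 9.76, 10.1 and 4.92 CPM in non-infarcted LV (log2 fold change 1.60, SE 0.193, adjusted p = 5.41e-05). The fibril-associated Col12a1 had 5.48, 6.96 and 5.61 CPM, against 3.11, 2.35 and 3.12 CPM (log2 fold change 1.03, SE 0.218, adjusted p = 0.00131). Col16a1 rose by 1.12 on the log2 scale. Col7a1, Col13a1, Col20a1, Col22a1, Col23a1 and Col28a1 were tested and not called in either treatment, and Col6a5, Col8a2, Col9a2, Col9a3, Col17a1, Col25a1 and Col26a1 were too low to test. In PBS hearts some alternatives called Col13a1 higher beside the block. These were no filter (adjusted p = 0.0478), all 18 libraries in the fit (0.0387) and leaving out non-infarcted LV replicate 3 (0.0113). Without infarcted LV PBS replicate 2, Col23a1 was called higher (adjusted p = 0.0169).

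**Figure D2:**
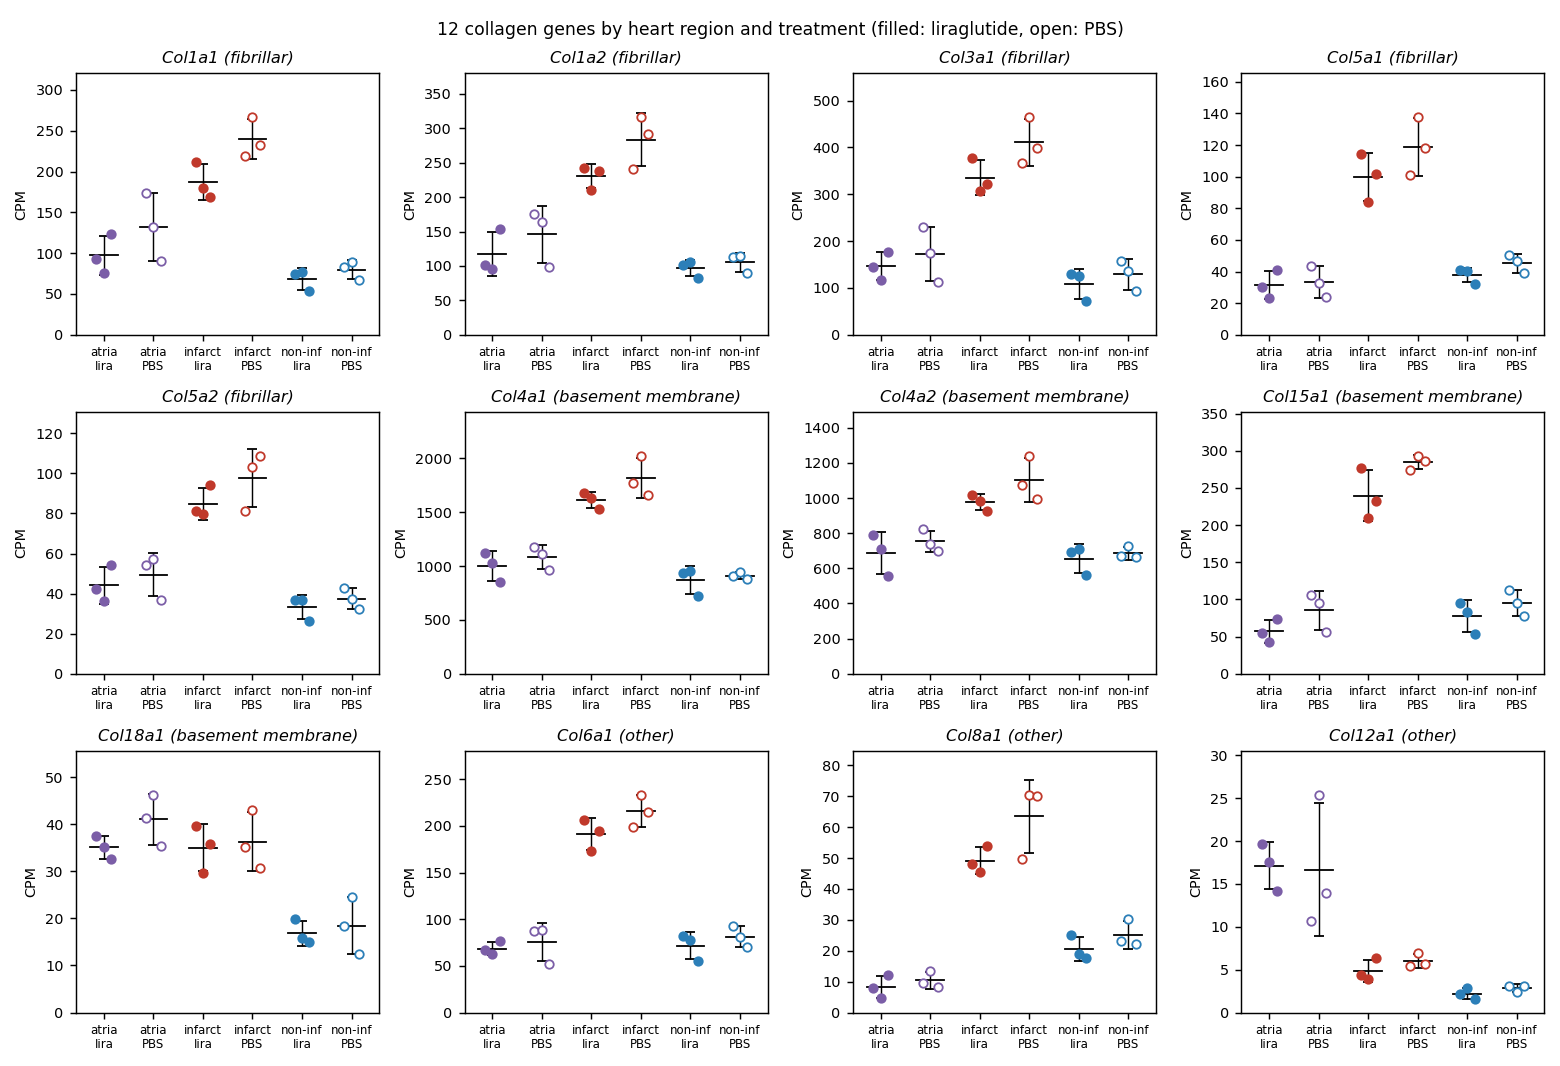
CPM of 12 collagens in each library by region and treatment, with the mean as a line and the SD as whiskers (n = 3). Filled points are liraglutide and open points PBS. Col1a1, Col3a1, Col4a1 and Col15a1 sit highest in infarcted LV, and Col12a1 in atria.

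Most genes for collagen folding, cleavage and reception also rose in infarcted LV, where 25.7% of all genes were called higher and 21.7% lower with PBS, and 27.3% and 22.4% with liraglutide. Of 19 tested genes for folding and modification in the endoplasmic reticulum, 15 rose and 1 fell in PBS hearts, with a median log2 fold change of 0.45. Of 14 for propeptide cleavage and cross-linking, 12 rose and none fell (median 1.01). Of 11 tested receptors, 9 rose and 1 fell (median 1.14). With liraglutide the counts were 14 and 1, 12 and 0, and 9 and 1. Examples in PBS hearts were Loxl2 and Loxl1, which encode lysyl oxidase-like cross-linking enzymes, at log2 fold changes of 1.39 (SE 0.102) and 1.30 (SE 0.0958). Sparc, a collagen-binding matrix protein, rose by 1.22 (SE 0.108). Mrc2, a collagen uptake receptor, rose by 1.34 (SE 0.106), Ddr2, a collagen-activated tyrosine kinase, by 1.14 (SE 0.0948), and Itga11, an integrin chain that binds fibrillar collagen, by 1.88 (SE 0.191). These members and lists were chosen with earlier results of these data known, so their counts do not stand as independent evidence.

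Markers of several cell types moved with the collagens. Summed fibroblast markers were 4085 to 4607 CPM in infarcted LV with PBS, against 1634 to 1861 CPM in non-infarcted LV, and all 6 markers rose. Activated fibroblast markers (Postn, Cthrc1, Fap, Tnc and Acta2) summed to 215 to 346 CPM, against 85.2 to 168 CPM. Endothelial markers summed to 1725 to 1894 CPM, against 876 to 915 CPM, and all 5 rose. Smooth muscle and pericyte markers summed to 1701 to 1832 CPM, against 752 to 906 CPM. Epicardial and mesothelial markers summed to 30.1 to 36.6 CPM, against 9.22 to 10.8 CPM, and 1 of the 2 tested rose. Macrophage and monocyte markers summed to 85.2 to 106 CPM, against 44.1 to 47.7 CPM, and all 3 tested rose. Neutrophil markers overlapped between the parts of the LV, at 31.6 to 119 CPM in infarcted and 19.8 to 36.6 CPM in non-infarcted LV. They were higher in atria with PBS, at 177 to 585 CPM. Cardiomyocyte markers summed to 46294 to 51102 CPM, against 60455 to 68239 CPM. In bulk tissue fewer or more cells of a type and less or more RNA per cell cannot be told apart, and the part of cell makeup in the collagen differences was not tested.

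Summed over the 37 members, collagens took 4424 to 5860 CPM in infarcted LV, against 1908 to 2616 CPM in non-infarcted LV, over both treatments. The fibrillar share of this sum was 21.6 to 24.7% in infarcted LV, against 15.5 to 19.3% in non-infarcted LV, and the ranges did not overlap. Col4a1 and Col4a2 together made up 52.1 to 58.8% of the collagen sum, against 60.9 to 67.6%. These shares follow from the genes above and were given no test of their own.

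Atria differed from non-infarcted LV in both directions. With PBS, 31 members were tested, 13 rose and 3 fell, where 26.3% of 13250 genes were called higher and 25.6% lower. With liraglutide, 12 rose and 4 fell, where 24.6% of 13431 genes were called higher and 22.9% lower. The 2 treatments shared 12 higher and 2 lower calls. The higher counts include Col25a1, which passed the filter on low counts through the atrial libraries alone. It had only 0.235 to 0.752 CPM in non-infarcted LV over both treatments. With liraglutide the lower count includes Col22a1, which passed through the LV libraries alone and had 0 to 0.32 CPM in atria over both treatments. These calls rest on the filter and do not stand as support. The median log2 fold change was 0.28 with PBS and 0.39 with liraglutide, against 0.01 for all genes tested in each. With the replicate number as a block, which pairs the PBS libraries, 15 rose and 5 fell in PBS hearts. Col1a2 (adjusted p = 0.0287) and Col3a1 (adjusted p = 0.0244) were then called higher, and Col15a1 (adjusted p = 0.0354) and Col5a3 (adjusted p = 0.00014) lower.

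The largest differences were in members with low levels in the LV. Col4a6 had 11.6, 12.6 and 8.46 CPM in atria with PBS, against 1.65, 2.26 and 0.959 CPM in non-infarcted LV with PBS, a log2 fold change of 2.61 (SE 0.254, adjusted p = 9.3e-06). Col12a1 had 10.7, 25.4 and 13.9 CPM, against 3.11, 2.35 and 3.12 CPM (log2 fold change 2.42, SE 0.337, adjusted p = 0.0004). The groups did not overlap for either gene, and 37% of all genes tested lay wholly higher with PBS. With liraglutide the log2 fold changes were 2.74 (SE 0.179) for Col4a6 and 2.93 (SE 0.254) for Col12a1. The transmembrane collagens Col23a1 and Col13a1 rose by 2.27 (SE 0.179) and 2.17 (SE 0.328) in PBS hearts. Col20a1, of the fibril-associated group, rose by 1.43 (SE 0.205). Col7a1, the anchoring fibril collagen, rose by 1.34 (SE 0.248) and Col14a1 by 1.43 (SE 0.299). Col25a1, a transmembrane collagen, rose by 1.81 (SE 0.458), but it passed the filter through the atrial libraries alone. Col18a1 had 41.3, 46.3 and 35.4 CPM in atria, against 18.5, 24.5 and 12.3 CPM in non-infarcted LV with PBS, a log2 fold change of 1.03 (SE 0.186, adjusted p = 0.00125). Col4a5 had 98.6, 90.6 and 103 CPM, against 56.4, 64.9 and 48.0 CPM (log2 fold change 0.66, SE 0.11, adjusted p = 0.000462). In PBS hearts Col4a5 was thus higher in atria and not called between the 2 parts of the LV, while with liraglutide its call between those parts depended on the fit. Col16a1 and Col27a1 rose by 0.59 and 0.70 in PBS hearts.

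Lower in atria in both treatments were Col8a1 and Col4a3. Col8a1 had 9.45, 13.4 and 8.30 CPM in atria with PBS, against 23.1, 30.2 and 22.1 CPM in non-infarcted LV with PBS, a log2 fold change of -1.37 (SE 0.17, adjusted p = 5.38e-05). With liraglutide it had 7.87, 4.82 and 12.2 CPM, against 25.0, 18.8 and 17.7 CPM (log2 fold change -1.31, SE 0.259, adjusted p = 0.00326). The groups did not overlap in either treatment, and 23.3% of all genes tested lay wholly lower with PBS and 26.6% with liraglutide. Col4a3 had log2 fold changes of -0.80 (SE 0.217) with PBS and -0.78 (SE 0.21) with liraglutide. Col5a1 had a log2 fold change of -0.28 (SE 0.155, adjusted p = 0.17) in liraglutide hearts, against a called -0.55 (SE 0.184, adjusted p = 0.0323) in PBS hearts, and the difference, liraglutide minus PBS, was 0.28 (SE 0.26) and not called. Without the liraglutide atrial library rich in ventricular markers, Col5a1 was called lower with liraglutide too (-0.42, adjusted p = 0.0118). Col5a3 was called with liraglutide (log2 fold change -0.87, SE 0.268, adjusted p = 0.0288) and had -0.86 (SE 0.329, adjusted p = 0.0692) with PBS. Col22a1 was called lower with liraglutide (-2.52, SE 0.5) and passed the filter through the LV libraries alone.

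The abundant collagens differed less between atria and non-infarcted LV. Col4a1 had 1177, 1109 and 960 CPM in atria with PBS, against 910, 943 and 877 CPM in non-infarcted LV with PBS, a log2 fold change of 0.12 (SE 0.0941, adjusted p = 0.297). Its groups did not overlap, although the test did not call it, and 37% of all genes tested lay wholly higher in this comparison. Col1a1 had 174, 133 and 90.2 CPM, against 83.0, 89.5 and 66.7 CPM (log2 fold change 0.61, SE 0.213, adjusted p = 0.0463). Col3a1 had 230, 174 and 113 CPM, against 158, 136 and 92.5 CPM (log2 fold change 0.30, SE 0.286, adjusted p = 0.427). With the replicate block, which pairs these libraries, Col3a1 was called higher (log2 fold change 0.27, adjusted p = 0.0244). The call of Col1a1 was lost in 6 of 12 alternatives with PBS and in 5 of 12 with liraglutide, that of Col5a1 in 4 of 12 with PBS, and that of Col5a3 in 5 of 12 with liraglutide. That of Col4a3 with liraglutide was lost without non-infarcted LV replicate 1. Without atrial PBS replicate 1, 6 members fell, against 3 with all libraries, and without non-infarcted LV liraglutide replicate 1, 2 fell, against 4. Without the PBS atrial library rich in adipocyte markers, 12 rose and 3 fell, and without the liraglutide atrial library rich in ventricular markers, 15 rose and 5 fell. Among those 15 were Col4a1 (log2 fold change 0.39, adjusted p = 0.00705) and Col4a2 (0.28, adjusted p = 0.0223). With all libraries these were not called with liraglutide, at 0.22 (adjusted p = 0.326) and 0.085 (adjusted p = 0.726).

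Genes that act on collagens were called in both directions between atria and non-infarcted LV, beside background shares of 26.3% higher and 25.6% lower with PBS and 24.6% and 22.9% with liraglutide. Of 20 tested folding and modification genes, 10 rose and 3 fell with PBS, and 11 rose and 2 fell with liraglutide. Of 13 cleavage and cross-linking genes, 7 rose and 2 fell with PBS, and 6 rose and 1 fell with liraglutide. Of 11 receptors, 4 rose and 3 fell with PBS, and 3 rose and 1 fell with liraglutide. In PBS hearts Creb3l1, a transcription factor of the secretory pathway, rose by 2.47 (SE 0.148) and Colgalt2, a collagen galactosyltransferase, fell by 2.48 (SE 0.243) on the log2 scale. Tll1, a procollagen C-proteinase, rose by 3.66 (SE 0.394), and Pcolce, an enhancer of that cleavage, by 1.10 (SE 0.11). Ddr1, a collagen receptor kinase, rose by 1.83 (SE 0.125), and Adgrg1, an adhesion receptor that binds type III collagen, fell by 1.14 (SE 0.0866).

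Markers that could carry atrial collagens also differed. Epicardial and mesothelial markers summed to 143 to 221 CPM in atria with PBS, against 9.22 to 10.8 CPM in non-infarcted LV with PBS. Cartilage markers summed to 33.2 to 52.7 CPM, against 2.52 to 6.35 CPM, with Matn3 at 0 in both. Smooth muscle and pericyte markers summed to 298 to 342 CPM, against 752 to 906 CPM, and fibroblast markers to 2646 to 4213 CPM, against 1634 to 1861 CPM. Their part in the collagen differences was not tested.

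**Figure D3:**
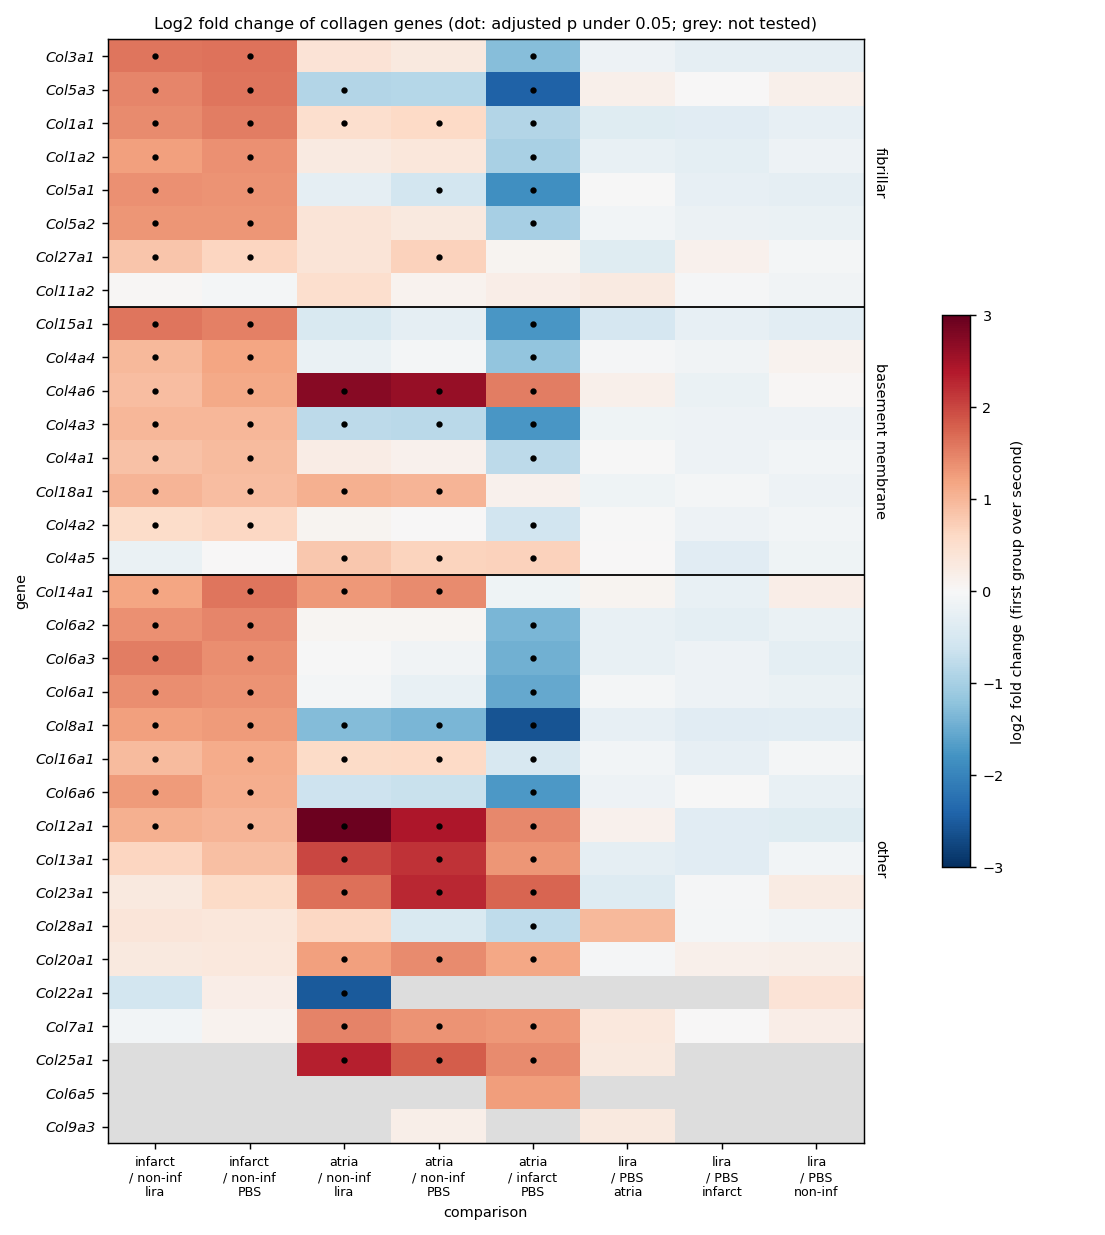
Log2 fold change of each collagen with a tested value (rows, by class) in 8 comparisons (columns), first group over second, on a colour scale from -3 to 3. Dots mark adjusted p under 0.05 and grey cells were not tested. The infarcted against non-infarcted columns hold 22 dots each and the liraglutide columns hold none.

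In PBS hearts, atria against infarcted LV gave 8 higher and 18 lower collagens of 31 tested, where 26.2% of 13249 genes were called higher and 26.1% lower. The median log2 fold change was -0.75, against 0.02 for all genes tested. This comparison shares its libraries with the other PBS comparisons, and 6 of 8 fibrillar, 5 of 8 basement membrane and 7 of 15 tested other collagens fell. Col8a1 had 9.45, 13.4 and 8.30 CPM in atria, against 49.8, 70.5 and 70.1 CPM in infarcted LV (log2 fold change -2.60, SE 0.173, adjusted p = 5.57e-07). Col5a3 had 25.5, 16.3 and 12.1 CPM, against 107, 94.3 and 89.5 CPM (log2 fold change -2.44, SE 0.248, adjusted p = 0.000153). The 2 groups did not overlap for either gene, and 28.4% of all genes tested lay wholly lower. Col5a1 fell by 1.84 (SE 0.204), Col15a1 by 1.76 (SE 0.201), Col4a3 by 1.75 (SE 0.229) and Col6a6 by 1.73 (SE 0.358) on the log2 scale. Col6a1, Col6a2 and Col6a3 fell by 1.53, 1.37 and 1.45, Col4a1 by 0.78 and Col4a2 by 0.58. Col3a1 had a log2 fold change of -1.28 (SE 0.245), Col1a1 of -0.88 (SE 0.218, adjusted p = 0.0124) and Col1a2 of -0.98 (SE 0.196). Col28a1 fell by 0.75 (SE 0.296, adjusted p = 0.04996), a call that was lost in 9 of 12 alternatives. The 8 higher members were Col23a1 (1.74), Col4a6 (1.52), Col12a1 (1.44), Col25a1 (1.42), Col13a1 (1.32), Col7a1 (1.29), Col20a1 (1.16) and Col4a5 (0.69), each also higher in atria than in non-infarcted LV. Col25a1 passed the filter through the atrial libraries alone, and its call was lost with DESeq2 (adjusted p = 0.0616) and without infarcted LV PBS replicate 1 (adjusted p = 0.0612). Col14a1, Col18a1 and Col27a1 were higher in atria than in non-infarcted LV but not called here, at -0.14 (SE 0.226), 0.14 (SE 0.126) and 0.09 (SE 0.167). Of the companion lists, 7 of 20 folding genes rose and 6 fell, 2 of 14 cleavage and cross-linking genes rose and 8 fell, and 1 of 11 receptors rose and 7 fell.

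Liraglutide against PBS gave no called collagen in any region. In atria 31 members were tested, in infarcted LV 29 and in non-infarcted LV 30, and 0.00739% of 13530 genes, 0% of 12988 genes and 0% of 12919 genes were called in the same fits. DESeq2 also called none of the collagens, and called 118, 4 and 2 genes in all. At an unadjusted p under 0.05 there were 2 collagens in atria, 7 in infarcted LV and 2 in non-infarcted LV, where 6.87%, 5.24% and 4.34% of all genes had such a p. Most estimates were below 0. In infarcted LV 25 of 29 members had a negative log2 fold change (median -0.16), in non-infarcted LV 22 of 30 (median -0.12) and in atria 21 of 31 (median -0.05), against 49.4%, 50.6% and 50.6% of all genes. The members move with each other across libraries, and the regions may share animals, so these counts carry no p.

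In infarcted LV, Col4a5 had the smallest p. It had 48.2, 47.2 and 42.9 CPM with liraglutide, against 55.9, 60.4 and 61.9 CPM with PBS, a log2 fold change of -0.34 (SE 0.0884, adjusted p = 0.558). Col1a1 had 212, 180 and 169 CPM, against 219, 267 and 232 CPM (log2 fold change -0.34, SE 0.0972, adjusted p = 0.613). Col6a2 had 210, 173 and 169 CPM, against 210, 237 and 238 CPM (log2 fold change -0.30, SE 0.092, adjusted p = 0.702). These 3 were also the members, of 29 tested, with all liraglutide libraries below all PBS libraries, as 5.63% of all genes tested had. They were named for their small p, so this is a description. Col1a2, Col3a1, Col8a1 and Col15a1 had log2 fold changes of -0.29, -0.28, -0.35 and -0.24. Serpinh1, the collagen chaperone HSP47, had 400 ± 54.7 CPM with liraglutide and 579 ± 117 CPM with PBS (SD, n = 3 each, log2 fold change -0.52, SE 0.128, adjusted p = 0.558).

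In non-infarcted LV, Col5a1 had 40.9, 40.1 and 32.4 CPM with liraglutide, against 50.2, 46.5 and 38.8 CPM with PBS, a log2 fold change of -0.28 (SE 0.104, adjusted p = 0.999). Col8a1 had a log2 fold change of -0.31 (SE 0.139) and Col6a3 of -0.29 (SE 0.146), each with an adjusted p of 0.999. In atria, Col28a1 had 2.60, 2.74 and 4.94 CPM, against 1.42, 2.12 and 2.08 CPM (log2 fold change 0.98, SE 0.307, adjusted p = 0.538). Its groups did not overlap, while those of Col23a1 did (log2 fold change -0.38, SE 0.15, adjusted p = 0.667). In atria, 2.94% of all genes tested lay wholly higher with liraglutide and 12% wholly lower. Col27a1 had 9.89, 7.96 and 9.38 CPM, against 13.4, 13.9 and 9.90 CPM (log2 fold change -0.36, SE 0.17, adjusted p = 0.756), and its groups were apart by a narrow margin. A test of whether the effect of liraglutide differed between infarcted and non-infarcted LV called 0 of 33 collagens, and none had an unadjusted p under 0.05. The same test between atria and non-infarcted LV called 0 of 33, with 1 such p, and in these tests 0% of 13920 genes were called. The smallest p of the atrial test was that of Col28a1 (log2 difference 1.08, SE 0.415, adjusted p = 0.76).

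**Figure D4:**
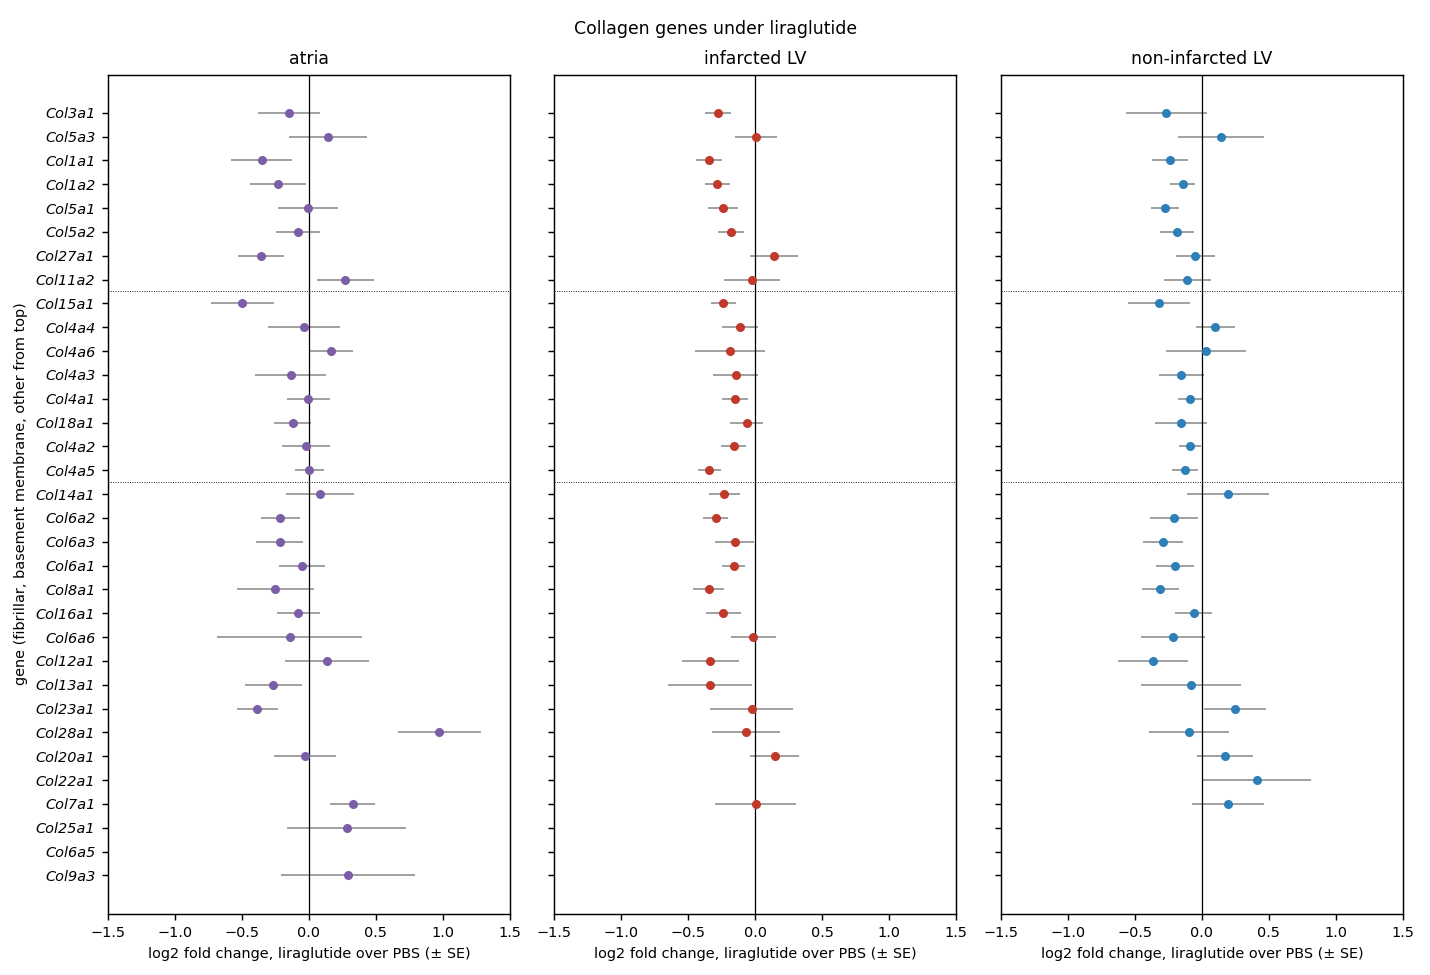
Log2 fold change of liraglutide over PBS with its SE for each tested collagen in atria, infarcted LV and non-infarcted LV, ordered by class. Points left of the line at 0 are lower with liraglutide. Negative values number 21 of 31, 25 of 29 and 22 of 30.

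Ratios between partner chains were compared per length of transcript. They were chosen after the values were seen and are a description with no test. Col4a1 to Col4a2 was 1.59 to 1.62 in the 6 infarcted LV libraries, 1.34 to 1.49 in the 6 atrial ones and 1.25 to 1.33 in the 6 non-infarcted ones, with no overlap between regions. Both treatments lay in each range. Col5a1 to Col5a2 was 0.453 to 0.633 in atria, against 0.830 to 1.11 in infarcted LV and 0.861 to 0.981 in non-infarcted LV. Col4a3 to Col4a4 was 0.460 to 0.591 in atria, against 0.682 to 0.843 in infarcted LV and 0.636 to 0.959 in non-infarcted LV. Col1a1 to Col1a2 overlapped between regions, with medians of 0.776 in atria, 0.766 in infarcted LV and 0.664 in non-infarcted LV. Col4a5 to Col4a6, a pair of head-to-head genes on chromosome X, was 7.33 to 12.4 in atria, 12.04 to 27.0 in infarcted LV and 29.2 to 50.9 in non-infarcted LV. Col4a6 was only 2.34 to 5.11 CPM in infarcted and 0.959 to 2.26 CPM in non-infarcted LV, so the LV ratios rest on few counts.

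**Figure D5:**
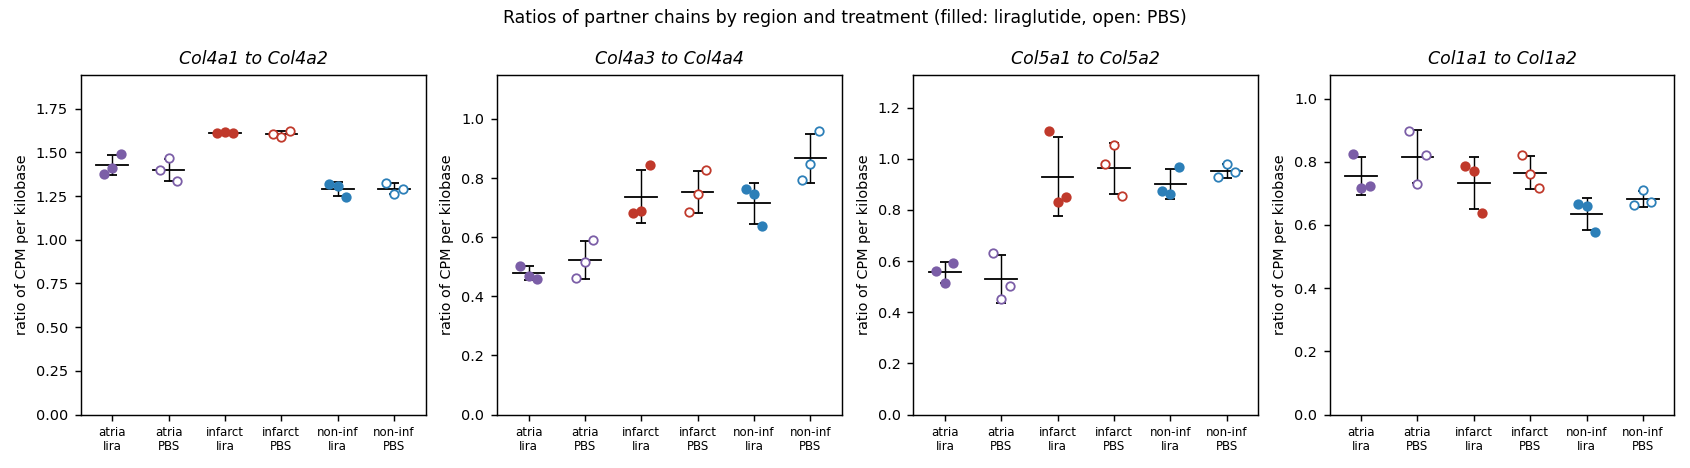
Ratio of CPM per kilobase between partner chains in each library, by region and treatment, with the mean as a line and the SD as whiskers (n = 3). Col4a1 to Col4a2 runs from 1.59 to 1.62 in infarcted LV, above all other libraries, and Col5a1 to Col5a2 from 0.453 to 0.633 in atria, below all others.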

How the data were processed

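The authors deposited raw counts per gene symbol for 18 libraries. Per the labels' protocols, polyadenylated RNA was prepared with a TruSeq stranded kit. STAR 2.7.9a and DESeq2, with the build mm10, were used per the submitters' processing notes. The sources used here name no counting tool or strand setting. Counts were tested with edgeR 4.0.16 in R 4.3.3 (filterByExpr by group, TMM, robust quasi-likelihood) on the 6 libraries of a comparison, and on all 18 for differences of effects, with Benjamini-Hochberg adjustment over all genes and a threshold of 0.05. SE is the log2 fold change over the root of F. The scripts were tested on simulated data.

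Members, classes, lists and tests were chosen with earlier results of these data known. The naming rule took 12 abundant or well-known members in each comparison between regions. It added up to 4 others per direction with the largest change and a mean count of 50 or more. In each liraglutide test it took the members with the 3 smallest p. Values per library are printed for part of these members, and the others are given by log2 fold change or within the counts by class. Alternatives were DESeq2 1.42.0, RLE size factors, every gene kept, genes kept only at a CPM of 1 in 3 libraries, a fit of all 18 libraries, a replicate block and each library left out. Labels give the same numbers in each region without naming animals. Same-numbered libraries deviated together, with every correlation over 0.1, for both infarcted against non-infarcted comparisons (0.164 to 0.369) and atria against non-infarcted LV with PBS (0.148 to 0.336), and the numbers were taken to pair these. Gene positions are from GENCODE M21. Replicates of a group differed by more than count noise (chi-square per degree of freedom of 2.65 to 62.9 in 18 pairs), so the spread between 3 libraries per group sets the precision.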

Additional observations from a re-analysis of the deposited data

How the results depend on the processing

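The count of called collagens, both directions together, stayed within 1.5 times its value. Over 12 alternatives it was 22 to 25 for infarcted against non-infarcted LV with PBS, 22 to 23 with liraglutide, 14 to 20 for atria against non-infarcted LV with PBS, 13 to 20 with liraglutide, and 24 to 26 for atria against infarcted LV. Lower calls in atria against non-infarcted LV alone ran from 2 to 6 with PBS (3 with all libraries) and from 2 to 5 with liraglutide (4 with all libraries). The count was 0 in every liraglutide test and difference of effects. Of the log2 fold changes of members chosen by the naming rule, 1218 of 1260 alternative values kept their direction and side of the threshold. Of the rest, 22 lost the threshold, 14 gained it and 6 changed sign, all in comparisons with atria. Other members did change call in infarcted against non-infarcted LV, among them Col4a6, Col13a1 and Col4a5, as given above. Col4a2 in atria against non-infarcted LV with PBS was -0.011 with no filter on low counts. Leaving out 1 library gave -0.068 to 0.044 for Col4a2 with PBS, -0.077 to 0.28 for Col4a2 with liraglutide and -0.22 to 0.028 for Col6a1 with liraglutide, where the cause was not tested. With the replicate block the counts were 23, 23, 20, 15 and 25 in the same order, and Col1a1 in atria against non-infarcted LV with liraglutide had an adjusted p of 0.0565. Beside this, the calls named in the text, and that of Col28a1 in atria against infarcted LV (adjusted p = 0.0605), the block changed no call of a collagen. The numbers were not taken to pair atria and non-infarcted LV with liraglutide (correlations of -0.172 to -0.0891). Atria and infarcted LV with PBS missed the limit of 0.1 through replicate 3 (0.0827, against 0.119 and 0.138 for replicates 1 and 2). Each of these libraries still matched its own number best, and pairing of both regions with non-infarcted LV would pair them too. In the sample descriptions, liraglutide and PBS libraries carry different numbers. Without a filter, Col1a1 in atria against infarcted LV had an adjusted p of 0.0504. Leaving out both atrial libraries that stood apart called 0 collagens under liraglutide in atria. The shallowest library, with 4280459 counts, puts 3 counts at 0.701 CPM, so members under about that level cannot be compared.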
